A study of Mus musculus with 64 samples.

Results

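The genes described here are 10 mouse serpins, the protease inhibitors Serpina3n, Serpina3k, Serpina3m, Serpina3c and Serpina3g of the Serpina3 clade and Serpina1a, Serpina1b, Serpina1c, Serpina1d and Serpina1e of the Serpina1 clade. They were chosen by name, as the Ensembl identifiers that GENCODE pairs with these symbols, and all 10 were found among the 55573 identifiers of the continuous count table and the 55414 of the acute one. RNA was sequenced from WT mice and from AS mice, which lack a functional maternal allele of Ube3a (the Ube3a tm1Alb allele, with exon 5 deleted) and serve as a model of Angelman syndrome. All were adult males of 10 to 18 weeks from a cross of C57BL/6J and 129sv mice, so both genotypes carry both backgrounds. In the acute cohort, hippocampus was taken 3 h after a subcutaneous injection of 3 mg/kg corticosterone (CORT, the main glucocorticoid of mice) or vehicle, with 6 mice in each of the 4 groups. In the continuous cohort, hippocampus and liver were taken after 5 days with an implanted pellet of 20 mg CORT or vehicle, with 5 mice in each of the 4 groups. WT and AS mice with vehicle are the controls of the CORT mice of the same genotype.

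Serpins inhibit proteases by a bait: an exposed reactive centre loop is cut by the protease, which then becomes trapped on the inhibitor. Serpina1 genes encode alpha-1 antitrypsin, made by hepatocytes and released into plasma as the main inhibitor of neutrophil elastase, and the Serpina3 genes are related to human antichymotrypsin. The mouse holds several copies of each where the human genome has a single gene, and Serpina3n is the copy known from the brain, where astrocytes and oligodendrocytes make it in injury and inflammation. Glucocorticoids and interleukin 6 are known to raise many such plasma proteins in hepatocytes, through GR (the glucocorticoid receptor) and STAT3.

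All members lie on chromosome 12 of GRCm38. The Serpina1 genes are on the minus strand, from Serpina1b (chr12:103728156-103830373) to Serpina1e (chr12:103946931-103958975). Serpina1d lies within the annotated span of Serpina1b, and Serpina1a and Serpina1c lie between Serpina1b and Serpina1e. The Serpina3 genes follow in the order Serpina3c (chr12:104146382-104153870, minus strand), Serpina3g (chr12:104236245-104241939), Serpina3k (chr12:104338486-104346144), Serpina3m (chr12:104338486-104394257) and Serpina3n (chr12:104406729-104414329), the last 4 on the plus strand. Serpina3k and Serpina3m share 60 exon bases in this annotation.

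The coding bases around the reactive centre loop are shown because the loop is where copies of one clade differ and where each meets its protease. Each stretch holds 72 coding bases of the GENCODE transcript, 5′ to 3′. In the Serpina1 genes, 17 of these bases differed between at least a pair of copies and are in capitals.
Serpina1a: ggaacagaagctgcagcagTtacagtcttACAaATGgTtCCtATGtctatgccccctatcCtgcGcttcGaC
Serpina1b: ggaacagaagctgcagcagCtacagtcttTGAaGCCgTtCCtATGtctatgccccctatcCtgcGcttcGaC
Serpina1c: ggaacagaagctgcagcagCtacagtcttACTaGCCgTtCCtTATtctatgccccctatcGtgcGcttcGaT
Serpina1d: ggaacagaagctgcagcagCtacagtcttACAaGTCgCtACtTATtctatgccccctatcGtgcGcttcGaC
Serpina1e: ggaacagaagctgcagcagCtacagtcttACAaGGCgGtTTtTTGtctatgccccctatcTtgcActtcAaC

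In the Serpina3 clade, 47 of the 72 bases differed among the 5 members and are in capitals. Serpina3n is set beside Serpina3k, the most abundant of the clade in liver, and Serpina3m, the closest copy of Serpina3k.
Serpina3n: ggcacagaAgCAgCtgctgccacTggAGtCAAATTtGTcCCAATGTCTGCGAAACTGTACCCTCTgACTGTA
Serpina3k: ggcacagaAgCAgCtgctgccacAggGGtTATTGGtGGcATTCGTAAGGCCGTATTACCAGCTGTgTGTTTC
Serpina3m: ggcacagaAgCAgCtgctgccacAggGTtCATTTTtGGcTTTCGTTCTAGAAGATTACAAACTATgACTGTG

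Most copies of a clade are alike over their coding sequence, and this bears on what a count of one gene means. Whole coding sequences, with the loop, were 91.4 to 96.7% identical among the Serpina1 genes and 91.0% between Serpina3k and Serpina3m. The lower Serpina1 values were those of Serpina1a, with 1308 coding bases against 1239 in each other copy. Serpina3n was 82.7% identical to Serpina3k and 85.2% to Serpina3m. The transcript used for Serpina3g holds 744 coding bases against 1254 in Serpina3n, and it was 38.3 to 40.7% identical to the other Serpina3 genes. Of all stretches as long as a read (100 bases), another gene held 58.5% of those in Serpina1c, 49.9% in Serpina1a, 29.3% in Serpina1d, 26.4% in Serpina1b and 18.2% in Serpina1e. The share was 6.09% in Serpina3m, 4.85% in Serpina3k, 4.64% in Serpina3g, 0.204% in Serpina3n and 0 in Serpina3c. Reads aligned to more than one place were set aside and not counted, so the levels of single Serpina1 genes are uncertain, and reads of 129sv alleles were placed on a C57BL/6J genome.

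The bases before the gene start are shown for Serpina3n and Serpina3c, because these promoters were 89.9% identical over 300 bases, while Serpina3n alone passed the filter on low counts in hippocampus. Both are from RefSeq (GRCm38.p6), 250 bases before the gene start at chr12:104406458-104406707 (plus strand) for Serpina3n and chr12:104153873-104154122 (minus strand) for Serpina3c, 5′ to 3′. Capitals mark AGAACA, the core of the GR motif, and in Serpina3c also ATTAAC, the reverse complement of GTTAAT, the core of the motif of the liver factor HNF1.
Serpina3n: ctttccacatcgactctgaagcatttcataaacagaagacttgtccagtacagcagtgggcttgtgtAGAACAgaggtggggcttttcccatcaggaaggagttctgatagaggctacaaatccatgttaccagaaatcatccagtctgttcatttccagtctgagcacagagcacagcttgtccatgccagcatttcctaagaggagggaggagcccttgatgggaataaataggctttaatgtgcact
Serpina3c: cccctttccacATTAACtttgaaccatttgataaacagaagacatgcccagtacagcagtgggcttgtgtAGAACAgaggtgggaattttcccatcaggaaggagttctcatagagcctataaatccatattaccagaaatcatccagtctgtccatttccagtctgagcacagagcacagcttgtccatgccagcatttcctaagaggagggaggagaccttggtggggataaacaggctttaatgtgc

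RefSeq gave a promoter, 300 bases long, for 8 of the 10 members, and not for Serpina3k and Serpina3m. On either strand, AGAACA stood in 7 of the 8 (not in Serpina3g), against 19% of all 32851 promoters. It lay 183 bases before the start of Serpina3n and 180 before that of Serpina3c. GTTAAT stood in 6 of the 8, namely Serpina3c and the 5 Serpina1 genes, against 7.1% of all promoters. TTGCNNAA, a form of the C/EBP motif, was in 4 of the 8 (10.8% of all), TTCNNNGAA, a form of the STAT motif, in Serpina3g only (8.3%), TATAAA in Serpina3c only (13.6%), and the full palindrome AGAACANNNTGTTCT in 0 (0.00913%). The members are copies, so these matches are not independent of each other, and a match of letters is not a binding site.

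Between 18612550 and 21783009 reads per library were counted on genes. Levels are given as CPM, which are counts relative to library size after TMM normalization. A floor of 3 counts equals 0.133 to 0.160 CPM and covers counting error only. Ube3a counts, which cover the whole gene and not the deleted exon alone, did not separate the genotypes in hippocampus (log2 fold changes of AS against WT mice of -0.06 to 0.14, none past the test), and in liver they were lower in AS mice (-0.55 with vehicle, adjusted p = 0.0191, and -0.48 with CORT, adjusted p = 0.0133, edgeR). The labelled tissues showed their markers: neuronal markers summed to 5107 CPM or more in every hippocampal library used and hepatocyte markers to 89950.6 CPM or more in every liver. Libraries H9 (AS vehicle) and H13 (WT vehicle) of the continuous hippocampus stood apart, with oligodendrocyte markers at 19166.9 and 15255.6 CPM against 2109.8 to 6473.3 in the other 18, and with choroid plexus markers at 13128.4 CPM in H13. They were left out of the tests here, as in the study. In the continuous hippocampus, the hepatocyte markers Alb, Apoa1, Apob, Tat, Cps1 and Fabp1 together reached 112.5 CPM in H1 (WT vehicle) and 38.6 CPM in H2 (AS vehicle), against 0.509 to 3.94 CPM in the other libraries used.

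Serpina3n was the only member past the filter in hippocampus, and Serpina3k was the most abundant in liver. Genes were tested when more than 20 normalized counts were present in at least 3 replicates of a group, and 1 of the 10 members, Serpina3n, passed this filter in each hippocampal data set, whereas all 10 passed in liver. Serpina3n made up a median of 99.7% of the Serpina3 counts in the acute hippocampus (99.3 to 99.9% over 24 libraries) and 99.6% in the continuous one. The lowest share there, 90.8%, was that of H1. In liver, Serpina3n held 2.80 to 6.03% of the clade's counts and Serpina3k 89.8 to 94.2% (20 libraries).

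Levels of different genes were compared as CPM per kilobase of exon. Serpina3n stood at a median of 87.4 in the acute hippocampus (65.7 to 131) and 87.7 in the continuous hippocampus (62.2 to 107, 18 libraries), and at 205 in liver (150.4 to 275). In the continuous cohort, the hippocampal libraries were all below the livers for Serpina3n. The liver members ran in the order Serpina3k, with a median of 4376.5 CPM per kilobase (2761 to 7446.5), Serpina1e at 2609 (1410 to 4488), Serpina1c at 2236 (1432 to 3211), Serpina1d at 1499 (1215 to 2043), Serpina1b at 1471.5 (1222 to 1922) and Serpina1a at 709 (573 to 1102). The 3 members below were Serpina3m at 202 (124 to 325), Serpina3c at 6.48 (4.32 to 20.6) and Serpina3g at 1.05 (0.511 to 2.88). Serpina3n and Serpina3m had nearly the same median and ranges that overlapped, as did each pair of neighbours from Serpina3k to Serpina1b, whereas Serpina1b and Serpina1a did not overlap, nor did Serpina1a and Serpina3n, Serpina3m and Serpina3c, or Serpina3c and Serpina3g. The spread includes both treatments and genotypes, and the order was not the same in each group. Serpina3m was below Serpina3n with vehicle (139 against 182 in WT and 153 against 168 in AS mice, means in CPM per kilobase) and above it with CORT (269.8 against 222 and 280.3 against 253), and in AS CORT livers the median of Serpina1c (2790.1) exceeded that of Serpina1e (2282). In addition, the Serpina1 levels depend on reads placed between copies and on the length used. Lengths covered all annotated exons, with 2415 bases for Serpina1b, 1832 for Serpina1a and 1617 for Serpina1e. The transcripts whose loops are shown above had 1394, 1581 and 1295 bases. Levels per kilobase of these copies would be higher with the shorter lengths, so the order among the Serpina1 genes depends on this choice.

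**Figure D1:**
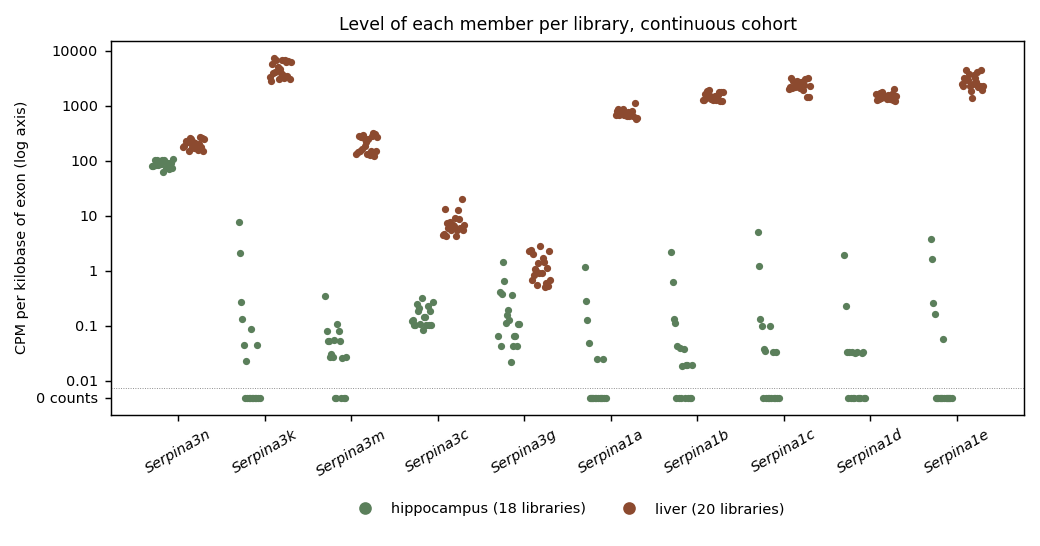
Level of each member in every library of the continuous cohort, as CPM per kilobase of exon on a log axis, with hippocampus (18 libraries) and liver (20 libraries) as separate points and libraries without a count on the line at the bottom. Serpina3n lies at 62.2 to 107 in hippocampus and 150.4 to 275 in liver, and the points of the other members in hippocampus that rise above the rest are mostly H1 and H2.

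The other 9 members had 0 to 23 counts in each of the 24 acute hippocampal libraries, with the highest for Serpina3k in H1 (WT vehicle). In the continuous hippocampus without H1 and H2, their highest counts were 16 for Serpina1b, 15 for Serpina3c, 12 for Serpina3k and 4 for Serpina3m. These are over 18 libraries and include H9 and H13, which were left out of the tests. Serpina3g, a copy known from blood and lymphoid cells, reached 66 counts in H5 (WT CORT). H1 and H2 differed from these, with 344 and 93 counts of Serpina3k, 153 and 36 of Serpina1c and 132 and 57 of Serpina1e. The summed CPM of Serpina3k and the 5 Serpina1 genes came to 34.6% of the hepatocyte marker sum in H1 and 28.5% in H2, above the 15.6 to 24.1% of the 10 vehicle livers, and to 19.1 to 31.0% in the 10 CORT livers. Serpina3n was at 166 CPM in both H1, within the other WT vehicle libraries (147 to 176 CPM), and H2, above the other AS vehicle libraries (128 to 154 CPM), and each call on Serpina3n in the continuous hippocampus was the same without them.

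The tissues were compared in a joint fit of the 20 liver and 18 hippocampal libraries of the continuous cohort. In WT mice with vehicle, Serpina3n was higher in liver by a log2 fold change of 2.08 (SE 0.0965, adjusted p = 6.45e-21, edgeR). Of the 15937 genes tested, 41.8% were called higher and 89.6% either way. The size of this fold depends on the normalization, since the joint fit scaled tissues of very different composition together. Scaled within each tissue, the means of these groups were 166 CPM in hippocampus and 376 CPM in liver, a smaller difference. The other 9 members entered this fit through their liver counts only, so that their direction was fixed by the filter, and no count or fold is given for them. The median of all genes in this comparison was -0.16. In bulk tissue, fewer cells of a type and less RNA per cell cannot be told apart.

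The acute cohort addressed the first response of the hippocampus to CORT. Serpina3n was slightly higher with CORT in WT mice and lower in AS than in WT mice when both received CORT. In WT mice it was at 175 to 205 CPM with vehicle (median 189) and at 198 to 269.6 CPM with CORT (median 224, highest in H8). In AS mice it was at 136 to 180.2 CPM with vehicle (median 164) and at 159 to 182 CPM with CORT (median 172). Vehicle and CORT libraries overlapped in both genotypes, where 1.22% of all genes in WT and 5.75% in AS mice had no overlap. Every WT CORT library lay above every AS CORT library, where 11.1% of all genes had no overlap.

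The mean of Serpina3n rose in WT mice from 188 ± 11.9 to 229 ± 23.99 CPM (SD, n = 6 each), a log2 fold change of 0.28 (SE 0.0703, edgeR adjusted p = 0.0350). It was thus 1 member called of 1 tested, where 1.48% of the 14611 genes tested were called and 1.06% were called higher. This call was lost without H8 (0.23, adjusted p = 0.0812) and, in turn, without each of 7 other WT libraries (H2, H4, H5 and H6 with vehicle and H10, H11 and H12 with CORT), with adjusted p up to 0.0986. It was also lost in a fit of the WT mice alone (adjusted p = 0.0843). In AS mice the means were 160.2 ± 18.0 and 172 ± 8.40 CPM (SD, n = 6 each), with a log2 fold change of 0.11 (SE 0.0705, 95% interval -0.03 to 0.24, adjusted p = 0.301, edgeR), where 17.9% of genes were called. The difference between these CORT effects did not pass the test (-0.18, SE 0.0995, adjusted p = 0.287, edgeR, 4.49% of genes called). It passed without H17 and H18, the lowest AS vehicle libraries with 142 and 136 CPM (-0.26, adjusted p = 0.0358, edgeR). That alternative was chosen after seeing the data. With the covariate for low alignment quality described below, the difference was reversed to 0.032 (adjusted p = 0.983, edgeR).

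Between genotypes, Serpina3n was lower in AS mice with CORT (log2 fold change of -0.41, SE 0.0704, adjusted p = 0.000377, edgeR), where 24.9% of genes were called and 13.2% were called lower. With vehicle the value was -0.23 (SE 0.0705, adjusted p = 0.210, edgeR), where 0.157% were called. All AS CORT libraries and the AS vehicle libraries H17 and H18 had 2640 to 2850 reads set aside for low alignment quality, against 1877 to 2237 in the other 16, and Serpina3n was at 136 to 182 CPM in the former and 163 to 269.6 CPM in the latter. With a covariate for this division the genotype difference with CORT was -0.11 (adjusted p = 0.941). The division and the genotype cannot be told apart among the CORT mice. Markers of other cells moved in the same comparison: of 6 oligodendrocyte genes, Mbp (-0.67) and Mag (-0.66) were called lower in AS mice and the list's median was -0.54, the reactive astrocyte gene Vim was called lower (-0.24) and the astrocyte gene Aqp4 higher (0.22). The endothelial Cldn5 (-0.37) and the neuronal Slc17a7 (-0.29) were also called lower and the blood marker Hbb-bt higher (1.44), each alone among the 5 genes of its list, and 0 of 5 microglial markers were called. The oligodendrocyte sum was 1687.9 to 3334 CPM (median 2395) in AS CORT and 1957 to 5886 CPM (median 3354) in WT CORT libraries, and its part in the Serpina3n values was not tested.

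After 5 days of CORT, Serpina3n was higher in the hippocampus of both genotypes, by a similar amount. In WT mice it was at 166, 173, 176 and 147 CPM with vehicle (H1, H4, H6 and H17) and at 209, 212, 212, 192 and 221 CPM with CORT (H3, H5, H12, H15 and H20). In AS mice it was at 166, 128, 150.3 and 154 CPM with vehicle (H2, H11, H14 and H19) and at 179, 183, 212, 191 and 192 CPM with CORT (H7, H8, H10, H16 and H18). Every CORT library lay above every vehicle library of its genotype, where 6.16% of all genes in WT and 6.80% in AS mice had no overlap. The libraries left out had 52.5 CPM (H13, WT vehicle) and 76.0 CPM (H9, AS vehicle), the lowest of all.

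In WT mice the means were 166 ± 12.8 (SD, n = 4) and 209 ± 10.7 CPM (SD, n = 5), with a log2 fold change of 0.34 (SE 0.0699, adjusted p = 0.0107, edgeR), where 2.92% of the 14949 genes tested were called and 0.803% were called higher. In AS mice they were 149.6 ± 15.6 (SD, n = 4) and 191 ± 12.7 CPM (SD, n = 5), with a log2 fold change of 0.35 (SE 0.0701, adjusted p = 0.00562, edgeR), where 3.77% were called and 2.03% were called higher. The effects differed by 0.02 (95% interval -0.18 to 0.21, adjusted p = 1, edgeR), a difference for which 0.00% of genes were called. AS against WT mice had log2 fold changes of -0.15 with vehicle (adjusted p = 0.679) and -0.13 with CORT (adjusted p = 0.512), neither past the test, where 0.0134 and 0.0401% of genes were called. With H9 and H13 included, the effects were 0.55 (adjusted p = 0.261) in WT and 0.51 (adjusted p = 0.384) in AS mice, so the call in each genotype rested on leaving them out.

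**Figure D2:**
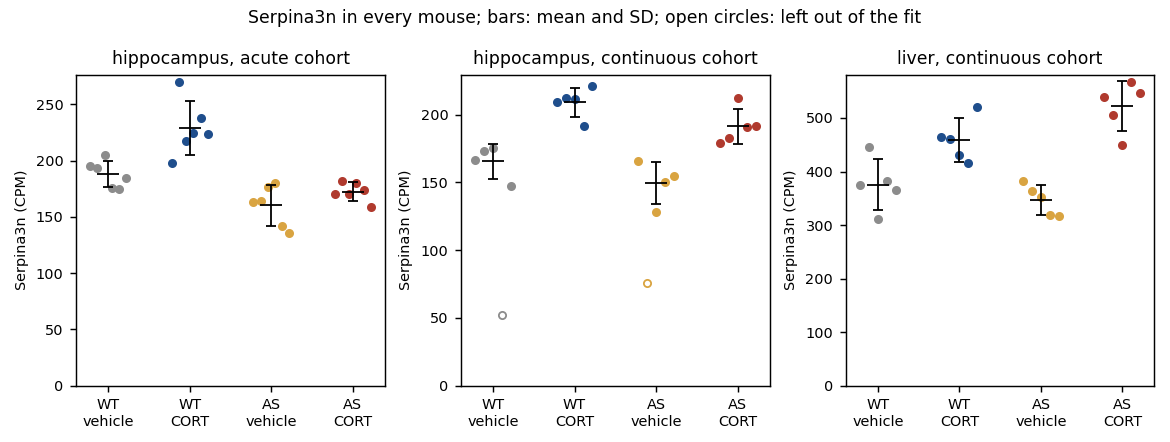
Serpina3n in CPM in every library of the acute hippocampus, the continuous hippocampus and the liver, by genotype and treatment, with mean and SD as bars and the left-out libraries H13 and H9 as open circles. CORT and vehicle overlap in the acute cohort, are apart in both genotypes of the continuous hippocampus, and are apart in the AS but not the WT livers.

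Genes that the astrocyte lists hold did not rise with Serpina3n in the continuous hippocampus. Of 8 measured genes of reactive astrocytes, Gfap, their filament protein, and Osmr, the oncostatin M receptor, fell in WT mice (-0.69 and -0.75, adjusted p = 0.000207 and 0.0256, edgeR), Gfap fell in AS mice (-0.55, adjusted p = 0.00146), and 0 rose in either. Of all genes tested here, 2.92% were called in WT mice (436 genes, of which 120 were higher) and 3.77% in AS mice (564 genes, of which 303 were higher). Of the general astrocyte markers, Aqp4, Gja1 and S100b fell in both genotypes and 0 rose. Among the GR targets used as a treatment check, Fkbp5, a chaperone that dampens GR, rose by 0.58 in WT and 1.05 in AS mice, and Tsc22d3, which encodes an anti-inflammatory factor, by 0.53 and 0.78. Stat3, the factor that interleukin 6 activates, had values of -0.06 and -0.12 and did not pass the test. The 6 astrocyte markers summed to 3149 to 3740 CPM in WT vehicle, 2851 to 3118 in WT CORT, 2986 to 3557 in AS vehicle and 2681 to 3390.4 in AS CORT libraries. Of 5 microglial markers, P2ry12 and Cx3cr1 fell in WT (-0.55 and -0.32) and AS mice (-0.56 and -0.35, edgeR, all past the test). Of 5 endothelial markers, Cdh5 fell in WT mice (-0.51) and Kdr and Cldn5 in AS mice (-0.63 and -0.50). Of 5 choroid plexus markers tested, Ttr (-4.57) and Folr1 (-3.35) fell in WT mice, with a median of -2.03 over the 5, and 0 were called in AS mice. The choroid plexus markers summed to 77.4 to 2902.5 CPM in WT vehicle, 36.2 to 128 in WT CORT, 85.5 to 328.5 in AS vehicle and 46.2 to 508 in AS CORT libraries. The microglial markers summed to 250.4 to 278 CPM in WT vehicle, 211 to 237 in WT CORT, 230.3 to 260 in AS vehicle and 208 to 234 in AS CORT libraries, and the endothelial markers to 114 to 135, 101.8 to 120, 111 to 144 and 96.8 to 125 CPM. None of the listed microglial, endothelial and choroid plexus markers was called higher, and of the neuronal, oligodendrocyte and blood markers 0 were called in either genotype. The blood markers summed to 40.9 to 58.8 CPM in WT vehicle libraries and, all above these, to 75.3 to 186 CPM in WT CORT libraries. In AS mice their sum was 53.1 to 118 CPM with vehicle and 37.6 to 174 CPM with CORT. The part of these lists in the Serpina3n values was not tested.

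In the acute hippocampus, Aldh1l1 of the general astrocyte list rose with CORT in WT (0.23, adjusted p = 0.0335, edgeR) and AS mice (0.20, adjusted p = 0.0171), alone among its 6 genes. Gfap had values of 0.0025 and 0.10 in WT and AS mice and did not pass the test, while Fkbp5 rose by 0.82 and 1.10 and Tsc22d3 by 0.79 and 1.06 (edgeR, adjusted p under the threshold). Of the reactive astrocyte list, 0 genes were called in WT mice and S1pr3 alone, lower, in AS mice. Of all genes tested, 1.48% were called in WT mice and 17.9% in AS mice, in either direction. Markers of other cell types were called lower as well. In WT mice these were the microglial P2ry12 (-0.40) and Cx3cr1 (-0.32) and the endothelial Kdr (-0.71), 2 and 1 of 5 in each list, with 0 of the 6 oligodendrocyte and 5 neuronal markers. In AS mice they were P2ry12 (-0.25), Cx3cr1 (-0.48), Kdr (-0.90) and Cldn5 (-0.51), the oligodendrocyte genes Mag (-0.72) and Mbp (-0.67) and the neuronal Slc17a7 (-0.33). None of these lists had a gene called higher with CORT, and of the 5 blood markers 0 were called. Their part in the Serpina3n values was not tested.

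The genes whose log2 CPM followed Serpina3n most closely over the 24 acute hippocampal libraries were Tsc22d1 (Pearson's r of 0.877), Fmnl1 (0.863), Kcnip2 (0.861), Ubac2 (0.858) and Slc35c2 (0.857). Over the 18 continuous libraries they included Sh3bp5 (0.906), Fkbp5 (0.900), Fbxw11 (0.884) and Trim9 (0.881), and over the 20 livers Nnmt (0.939), Coa6 (0.934), Sult1d1 (0.934), D1Ertd622e (0.933) and Gfra1 (0.925). None of the genes named was in more than one of these lists, and the libraries in each share treatment and genotype groups.

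In the liver, 5 days of CORT raised most of these serpins and lowered Serpina3g. In WT mice 7 of 10 members were called, 6 higher and 1 lower, where 18.6% of the 12273 genes tested were called, 8.73% higher and 9.90% lower. In AS mice 8 of 10 were called, 7 higher and 1 lower, where 27.5% were called, 12.6% higher and 15% lower. The median log2 fold change of the 10 members was 0.35 in WT and 0.41 in AS mice, beside medians of -0.0047 and -0.0032 over all genes tested. Libraries of vehicle and CORT mice did not overlap for 6 members in WT mice (Serpina3k, Serpina3m, Serpina3c, Serpina3g, Serpina1b and Serpina1c) and for 5 in AS mice (Serpina3n, Serpina3k, Serpina3m, Serpina3g and Serpina1d), where 14.1 and 16.6% of all genes had no overlap.

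**Figure D3:**
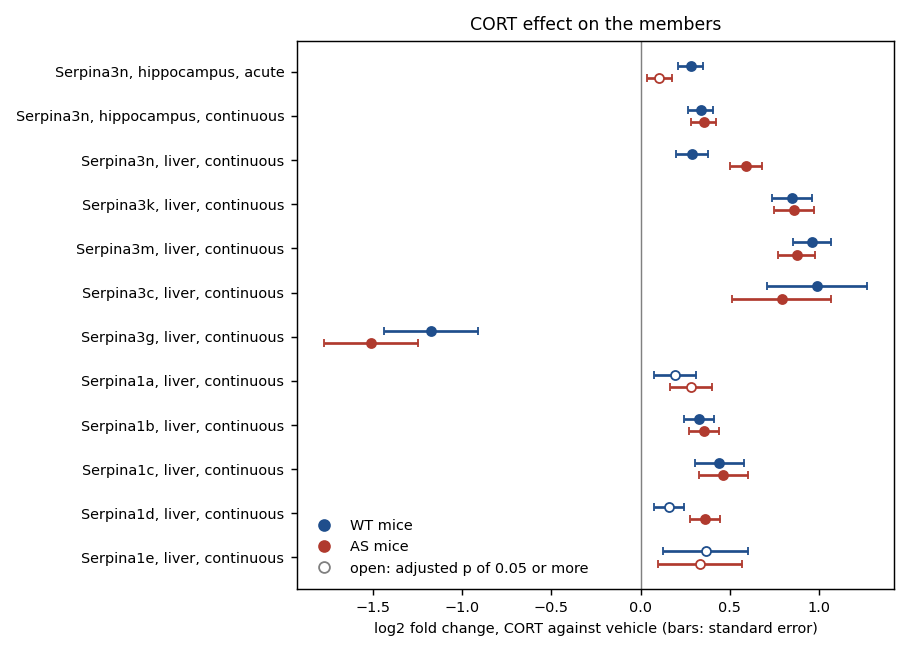
Log2 fold change of CORT against vehicle for each tested member and data set, with WT and AS mice as separate points, bars of 1 standard error and open symbols for values that did not pass the test. Serpina3g is the only member below 0 (-1.18 and -1.51), and Serpina3k and Serpina3m lie at 0.85 to 0.96.

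Serpina3k, the kallikrein-binding inhibitor of plasma, was the most abundant member and rose in both genotypes. In WT livers it was at 6705, 8079, 8287, 7429 and 7164 CPM with vehicle and at 11891, 15317, 13751, 13955 and 12970.1 CPM with CORT. In AS livers it was at 5679.5, 6234, 8208, 6579 and 6420.1 CPM with vehicle and at 13970.1, 10390.0, 9718, 12672 and 13338 CPM with CORT. The treatments did not overlap in either genotype. The log2 fold change was 0.85 (SE 0.112, adjusted p = 2.09e-05, edgeR) in WT and 0.86 (SE 0.112, adjusted p = 1.09e-05) in AS mice.

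Serpina3m, the closest copy of Serpina3k, stood far below it and rose as well. It was at 230.4, 254, 279, 214 and 214 CPM in WT livers with vehicle and at 479, 466, 429, 479 and 466 CPM with CORT. The AS livers had 251, 320.3, 226, 261 and 255 CPM with vehicle and 505, 452, 375, 558 and 519 CPM with CORT. All CORT libraries were above all vehicle libraries of the same genotype, with log2 fold changes of 0.96 (SE 0.105, adjusted p = 2e-06, edgeR) in WT and 0.88 (SE 0.104, adjusted p = 3.64e-06) in AS mice. Over the 20 livers, log2 CPM of Serpina3k and Serpina3m had a Pearson's r of 0.882, over livers that share their treatment groups.

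Serpina3n rose in liver in both genotypes. It was at 374, 446, 310.5, 383 and 365 CPM in WT livers with vehicle and at 465, 461, 431, 416 and 521 CPM with CORT. In AS livers it was at 382, 364, 352, 319 and 317 CPM with vehicle and at 540.1, 506, 449, 568 and 546 CPM with CORT. The treatments were apart in AS mice, and in WT mice the vehicle library L4 reached into the CORT range. The log2 fold change was 0.29 (SE 0.0896, adjusted p = 0.0286, edgeR) in WT and 0.59 (SE 0.0898, adjusted p = 5.83e-05) in AS mice. The WT call was lost without a filter on low counts (adjusted p = 0.0565), in a fit of the WT mice alone (adjusted p = 0.0646) and without each of 6 of the 20 libraries in turn (L1, L6 and L17 with vehicle and L3, L5 and L20 with CORT, adjusted p up to 0.1003). The effect was larger in AS mice by 0.30 (SE 0.127, 95% interval 0.05 to 0.55), with an unadjusted p of 0.0278 and an adjusted p of 0.553 by edgeR, so this difference did not pass the test.

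Serpina3n was the member for which both tissues could be compared in their response. Over both genotypes, its CORT effect was higher in liver than in hippocampus by 0.12 on the log2 scale (SE 0.0881, 95% interval -0.05 to 0.29, adjusted p = 0.381, edgeR), where 19.9% of genes were called. In WT mice the difference was -0.03 (SE 0.125, 95% interval -0.28 to 0.21, adjusted p = 0.956), where 7.86% were called. In AS mice it was 0.28 (SE 0.125, 95% interval 0.03 to 0.52, adjusted p = 0.153), where 12.1% were called. None passed the test, so a difference between the tissues was not shown, nor that they respond alike. Beside these, the liver effects of Serpina3k and Serpina3m (0.85 to 0.96) lay above every value of Serpina3n in either tissue (0.11 to 0.59), a comparison between genes that was not tested.

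Serpina3c and Serpina3g were the scarce members and went opposite ways. Serpina3c was at 9.55 to 13.1 CPM in WT livers with vehicle and at 29.6, 16.4, 20.04, 28.4 and 15.1 CPM with CORT, a log2 fold change of 0.99 (SE 0.280, adjusted p = 0.0165, edgeR). In AS livers it was at 10.4 to 14.8 CPM with vehicle and at 17.4, 12.3, 15.3, 19.1 and 45.6 CPM with CORT. One AS CORT library, L18, was far above the other 4, and the lowest overlapped with the vehicle livers. The AS fold change of 0.79 (SE 0.278, adjusted p = 0.0395) became 0.34 (adjusted p = 0.210) without L18, and the call was also lost without each of the AS vehicle livers L2, L9, L11, L14 and L19 in turn (adjusted p of 0.0503 to 0.0750) and in a fit of the AS mice alone (adjusted p = 0.0796).

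Serpina3g was at 4.76, 4.32, 2.31, 3.57 and 2.36 CPM in WT livers with vehicle and at 1.44, 1.80, 1.92, 1.07 and 1.43 CPM with CORT. In AS livers it was at 4.95, 2.91, 6.05, 2.995 and 4.80 CPM with vehicle and at 2.09, 1.17, 1.96, 1.25 and 1.12 CPM with CORT. All CORT livers were below all vehicle livers of their genotype, with log2 fold changes of -1.18 (SE 0.265, adjusted p = 0.00340, edgeR) and -1.51 (SE 0.263, adjusted p = 0.000220) in WT and AS mice. Marker genes of macrophages and other cells beside the hepatocytes fell as well. Of the listed markers of Kupffer, sinusoidal, stellate and duct cells, 3 of 7 tested fell in WT and 4 of 7 in AS mice and 0 rose, where 9.90 and 15% of all genes were called lower. Their summed level was 275.0 to 291 CPM in WT vehicle, 232 to 253 in WT CORT, 299.6 to 347 in AS vehicle and 215 to 263 in AS CORT livers, and none of the listed genes was at 0 in a whole group. With vehicle and with CORT, WT livers had blood marker sums of 343 to 574 and 229 to 328 CPM. Their microglial sums were 48.6 to 61.7 and 28.3 to 39.0 CPM, and their endothelial sums 64.3 to 104 and 53.0 to 90.3 CPM. AS livers had blood sums of 243 to 475 and 124 to 192 CPM. Microglial sums there were 60.6 to 90.2 and 27.8 to 39.3 CPM, and endothelial sums 84.3 to 132 and 53.0 to 89.0 CPM. The part of all these lists in the Serpina3g values was not tested.

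**Figure D4:**
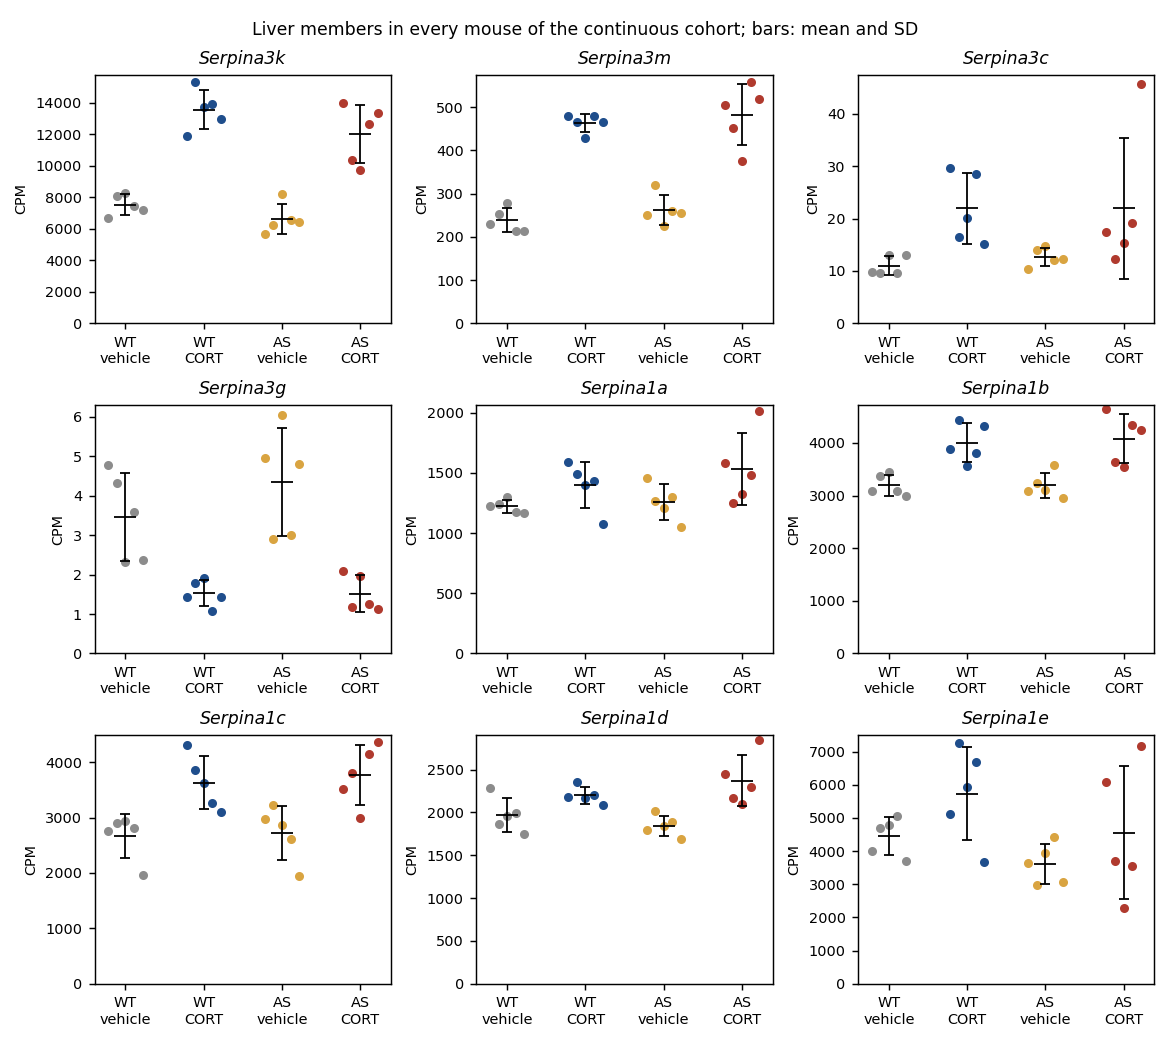
CPM of the 9 members other than Serpina3n in each of the 20 livers, by genotype and treatment, with mean and SD as bars and every axis starting at 0. Serpina3k, Serpina3m and Serpina3g show no overlap of treatments in either genotype, while the Serpina1e values of the AS CORT livers run from 2280.5 to 7158 CPM.

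Of the Serpina1 genes, 2 of 5 were called higher with CORT in WT mice and 3 of 5 in AS mice, where 8.73 and 12.6% of all genes tested were called higher. Summed over the 5 copies, a measure that does not depend on how reads were split among them except for those left uncounted, they were at 13509 ± 1152 CPM with vehicle and 16967 ± 1844 with CORT in WT mice (SD, n = 5 each). In AS mice the sums were 12636 ± 1148 and 16302 ± 3266 CPM (SD, n = 5 each). The summed Serpina3 genes went from 8161 ± 673 to 14523 ± 1247 CPM in WT and from 7251 ± 927 to 13045 ± 1971 CPM in AS mice (SD, n = 5 each). In CPM, the Serpina1 sum with vehicle thus exceeded the Serpina3 sum in both genotypes, and with CORT the clades were closer. These sums are not corrected for exon length.

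Serpina1b and Serpina1c were called higher in both genotypes. Serpina1b was at 2987 to 3444 CPM with vehicle and 3558 to 4439 CPM with CORT in WT mice, without overlap, and at 2952 to 3582 and 3549 to 4642 CPM in AS mice. Its log2 fold changes were 0.33 (SE 0.0842, adjusted p = 0.00903, edgeR) and 0.35 (SE 0.0842, adjusted p = 0.00359). Serpina1c went from 2671 ± 400.3 to 3628 ± 481 CPM in WT and from 2727 ± 489 to 3764 ± 544 CPM in AS mice (SD, n = 5 each), with log2 fold changes of 0.44 (SE 0.138, adjusted p = 0.0292) and 0.46 (SE 0.138, adjusted p = 0.0162, edgeR). Its WT call was lost without each of 4 of the 20 libraries in turn (L17 with vehicle and L3, L5 and L12 with CORT, adjusted p up to 0.0803), and more than 50% of its read-length stretches are held by another gene.

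Serpina1d passed the test in AS mice, from 1845 ± 118 to 2372 ± 299 CPM (0.36, SE 0.0831, adjusted p = 0.00277, edgeR), and had a value of 0.16 in WT mice (adjusted p = 0.203). Serpina1a had values of 0.19 in WT (adjusted p = 0.284, edgeR) and 0.28 in AS mice (adjusted p = 0.0802), with the latter near the threshold. Whether the effects on these genes differed between genotypes was tested by the interaction, and 0 of 10 members passed it by edgeR, where 0.00% of genes were called. At an unadjusted p under 0.05, Serpina3n was the single member, and the Wald test of DESeq2 also called 0. Between AS and WT mice of one treatment, 0 of 10 members were called with vehicle or with CORT, where 0.0163 and 0.277% of genes were called. Of the members, 0 had an unadjusted p under 0.05 in either and DESeq2 called 0.

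Serpina1e, the copy at the end of the Serpina1 row, had the widest spread of the 5 copies. In WT livers it was at 4006, 4711, 4780.4, 5069 and 3707 CPM with vehicle and at 5128, 7258, 5936, 6702 and 3658 CPM with CORT. In AS livers it was at 3641, 2970.3, 3944, 4431 and 3075 CPM with vehicle and at 6083, 3689.6, 2280.5, 3539 and 7158 CPM with CORT. The lowest CORT library of each genotype lay below every vehicle library, and the highest lay above. The log2 fold changes of 0.36 (SE 0.236, adjusted p = 0.318, edgeR) and 0.33 (SE 0.236, adjusted p = 0.319) did not pass the test, with standard errors larger than those of the 4 other copies. The AS value ran from 0.11 without the CORT liver at 7158 CPM to 0.51 without the one at 2280.5 CPM (adjusted p = 0.751 and 0.0743, edgeR), with no call for any library left out.

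The share of each copy in the clade varied between livers. Serpina1e held 30.004 to 35.9% of the Serpina1 counts in WT vehicle livers, 25.7 to 38.5% in WT CORT, 23.4 to 32.1% in AS vehicle and 18.6 to 34.7% in AS CORT livers. Over all 20 livers its share ran from 18.6 to 38.5%, that of Serpina1b from 20.6 to 30.4%, Serpina1c from 16.99 to 26.3%, Serpina1d from 12.1 to 17.1% and Serpina1a from 7.57 to 11.3%. Over these livers, log2 CPM of Serpina1e had a Pearson's r of 0.258 to 0.586 with the 8 members other than Serpina3g, with the lowest value for Serpina3n. The pairs among those 8 members ran from 0.504 (Serpina3n and Serpina3c) to 0.893 (Serpina3m and Serpina1b), so the ranges overlapped.

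**Figure D5:**
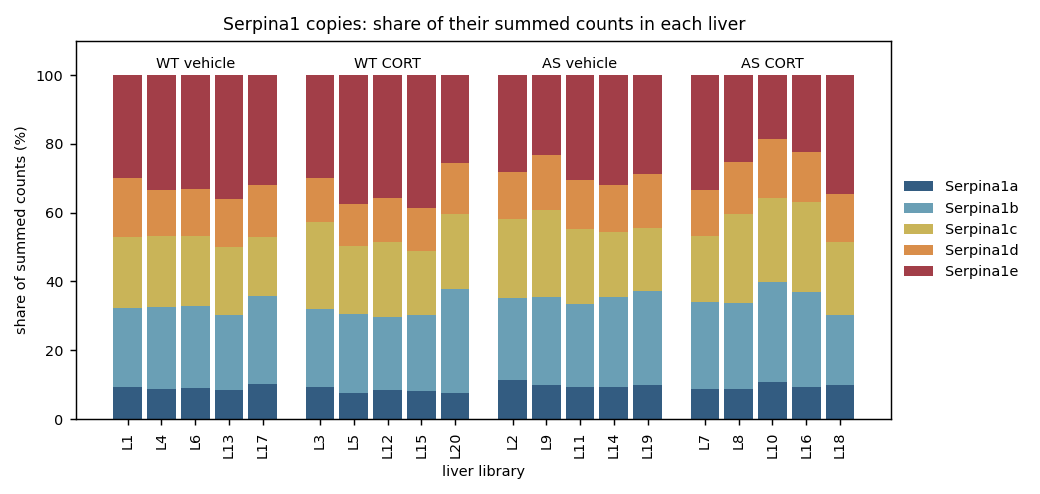
Share of each Serpina1 copy in the summed Serpina1 counts (percent, stacked to 100) in each of the 20 livers, ordered by group. The top segment, Serpina1e, runs from 18.6% to 38.5%, and Serpina1a at the bottom from 7.57 to 11.3%.

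Several other genes of the Serpina clade fell in liver. Of 15 listed, 8 were tested, and 1 rose, 4 fell and 3 were not called in each genotype, where 9.90% of all genes in WT and 15% in AS mice were called lower. The list had a median log2 fold change of -0.99 in WT and -1.23 in AS mice. Serpina6, which encodes the plasma carrier of corticosterone, fell in both, with log2 fold changes of -2.15 in WT (SE 0.278, adjusted p = 1.73e-05, edgeR) and -2.44 in AS mice. Serpina7, the carrier of thyroid hormone, fell as well (-2.0003 and -2.30), as did Serpina3f, a near copy of Serpina3g (-1.93 and -2.74), and Serpina9 (-1.89 and -2.32). The gene that rose was Serpina5, the protein C inhibitor, in WT (2.35) and Serpina11 in AS mice (0.41). Of 6 plasma serpins of other clades measured, Serpinc1 (antithrombin) rose by 0.22 and 0.19 and Serpine2 by 1.86 and 1.76, and Serpinf2 (antiplasmin) fell by 0.30 in AS mice.

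Of 18 measured pathway genes known to control these plasma proteins, 3 rose and 3 fell in WT mice and 5 rose and 3 fell in AS mice. Of all genes tested in liver, 8.73% were called higher and 9.90% lower in WT mice, and 12.6% and 15% in AS mice. Cebpd, a factor of acute phase genes, rose by 1.58 and 2.01, and Il1r1, the interleukin 1 receptor, by 0.79 and 1.48, while Lifr, a receptor of the interleukin 6 family, fell by 1.25 and 1.52 (edgeR, all past the test). Il6ra rose in AS mice (1.497), and Socs3, a feedback inhibitor of STAT3, fell in WT mice by 0.94. Stat3 had values of -0.10 and -0.05, and Nr3c1, which encodes GR, fell by 0.15 and 0.22. None of these genes passed the test of the interaction.

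Of 20 acute phase genes, 7 rose and 3 fell in WT livers and 10 rose and 4 fell in AS livers, with medians of 0.05 and 0.22, where 8.73% of all genes were called higher and 9.90% lower in WT and 12.6% and 15% in AS mice. Mt2, a metallothionein, rose by 4.78 and 5.92, Lcn2 (lipocalin 2) by 2.68 and 2.99 and Hp (haptoglobin) by 0.96 and 1.12, whereas Saa1 (serum amyloid A) fell by 1.85 and 2.08. The Serpina3k and Serpina3m values of 0.85 to 0.96 were thus near that of Hp. Of 9 protease genes measured, 2 rose and 2 fell in WT and 3 rose and 0 fell in AS mice, among them Hpn, the hepatocyte protease hepsin, which rose by 0.36 and 0.45. The hepatocyte markers had medians of 0.04 in WT and 0.23 in AS mice, with 0 of 6 that rose and Fabp1 that fell in WT mice, and 3 that rose and 1 that fell in AS mice. Their sum was 94113.0 to 105658.2 CPM in WT vehicle, 99969.8 to 114549.9 in WT CORT, 89950.6 to 121113.5 in AS vehicle and 113954.1 to 136098.2 in AS CORT livers. Their part in the Serpina values was not tested.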

How the data were processed

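RNA-seq libraries of 64 samples were used, 24 of acute hippocampus, 20 of continuous hippocampus and 20 of continuous liver, grouped by the genotype and treatment in their labels. The authors aligned stranded paired reads of 100 bases to mm10 with STAR, used HTSeq-count to count them per gene in the BioWDL pipeline, and deposited raw counts without normalization or pooling. Versions of STAR and HTSeq-count, the annotation release and the strand setting are not given in the sources used here. The 2 tables differ in annotation, so levels were compared within a table only. Of their columns, 0 belonged to no sample. Reads set aside as not uniquely aligned came to 3.92 to 8.44% of a library.

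Gene symbols, positions and coding sequences came from GENCODE on GRCm38, and promoters from RefSeq. The members and lists were chosen with earlier results of these data known. The text names all 10 members, the genes of the listed groups and, for Serpina3n, the 5 genes with the highest Pearson correlation of log2 CPM (prior count of 2) in each data set, of which one is not reported here.

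Genes entered when 3 or more replicates of a group had over 20 counts after median-of-ratios normalization. They were tested by quasi-likelihood in edgeR 4.0.16 (R 4.3.3) with TMM normalization. One coefficient was fitted for each of the 4 groups, and p-values were adjusted by Benjamini-Hochberg over the genes tested, with 0.05 as the threshold. The tissues were compared in a joint fit of both. Hippocampal libraries H9 and H13 of the continuous cohort were left out, as by the authors. The 95% intervals are normal intervals from the standard error. The scripts were tested on simulated data.

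Alternatives were the Wald test and size factors of DESeq2 1.42.0, low counts kept in, only 2 groups per fit, limma-voom with quality weights (limma 3.58.1), a surrogate variable (sva 3.50.0), a covariate that divides the acute libraries by their low-quality alignments, all 20 libraries of the continuous hippocampus, H8 left out, and each library left out in turn. After seeing the data, fits without H17 and H18 of the acute and without H1 and H2 of the continuous hippocampus were added. Libraries with the same mouse number in liver and hippocampus were checked for pairing. Their deviations from the group means correlated by -0.04 to 0.04, with 0 of 18 over 0.1. Such a correlation between different tissues cannot tell whether the libraries share a mouse. In the study both tissues were collected from the mice of this cohort, so libraries of one number may do so. The joint fit treated all libraries as independent, and the mouse number was used as a block in an alternative only.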

Additional observations from a re-analysis of the deposited data

Results flagged for a closer look

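In 56 groups of 4 to 6 libraries, 6 values lay apart from the others of their group by the 95% limit of Dixon's test, where chance sets apart about 1 in 20 groups. In liver, Serpina1c was at 1966 CPM in L17 (WT vehicle) against 2755 to 2928 CPM in the other 4. Serpina3c was at 45.6 CPM in L18 (AS CORT) against 12.3 to 19.1 CPM, and its call in AS mice was lost without this library or any one of the 5 AS vehicle livers. Serpina3m was at 429 CPM in L12 (WT CORT) against 466 to 479 CPM, a library still above all vehicle livers.

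The other 3 values were sums of the 9 members other than Serpina3n in hippocampus. They came to 3.49 CPM in H1 of the acute cohort (WT vehicle) against 0.293 to 1.20 CPM, to 12.3 CPM in H2 of the continuous cohort (AS vehicle) against 0.455 to 1.24 CPM, and to 39.97 CPM in H1 of the continuous cohort (WT vehicle) against 0.451 to 2.17 CPM. Hepatocyte markers summed to 10.8, 38.6 and 112.5 CPM in these libraries, and to 0.527 to 4.05 CPM in the other acute and 0.509 to 3.94 CPM in the other continuous hippocampal libraries used.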

How the results depend on the processing

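In liver, over the alternatives other than leaving out a library, 6 to 7 members were called in WT and 7 to 8 in AS mice (7 and 8 as reported), and with each library left out in turn 5 to 7 and 7 to 9. Serpina3k, Serpina3m, Serpina3g and Serpina1b kept direction and call in both genotypes under all of these. The call on Serpina3c in AS mice was also lost with limma-voom (adjusted p = 0.0746), and that on Serpina1a in AS mice was gained there (adjusted p = 0.0469). In hippocampus the count of members is that of Serpina3n, 1 or 0. The acute call in WT mice went to 0 in a fit of the 2 groups alone and without H8, and with each library left out in turn it was 0 to 1 (log2 fold change of 0.23 to 0.32). The acute value of AS mice (0.11 as reported) was 0.013 without H17 and H18 and 0.31 with the division by low alignment quality as a covariate (adjusted p = 0.904 and 0.0829, edgeR), and 0.061 to 0.13 with each library left out, with no call in any of these. The acute interaction went from 0 to 1 without H17 and H18 (-0.26), and was reversed to 0.032 with the division by low alignment quality as a covariate, where the genotype call with CORT went from 1 to 0. With all 20 continuous hippocampal libraries the calls went from 1 to 0 in both genotypes. The interaction there, 0.02 as reported, was reversed to -0.044, and it ran from -0.050 to 0.071 with each library left out. The difference between liver and hippocampus in the CORT effect, 0.12 over both genotypes, was reversed to -0.064 with all 40 libraries, where it was -0.25 in WT and 0.12 in AS mice. The difference in WT mice, -0.03 as reported, ran from -0.10 to 0.036 with each library left out. These differences near 0 passed no test with either sign. A fit with the mouse number as replicate block changed no call. Its tissue differences were 0.13 over both genotypes (adjusted p = 0.401, edgeR), -0.02 (0.997) in WT mice and 0.29 (0.211) in AS mice. No paired analysis was possible within a tissue, because the groups there consist of different mice. Depth limits the 9 other members in hippocampus, most of whose counts were near the floor of 3.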

Other observations

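Serpina3m, below the filter in hippocampus, had 4 to 12 counts in the 8 acute libraries H17 to H24 (all AS CORT and 2 AS vehicle mice) and 0 to 5 counts in the other 16. The same 8 libraries had more reads set aside for low alignment quality.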
